A study of Mus musculus with 12 samples.

Results

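The comparison described here set the transcripts bound to tagged ribosomes of Camk2a-expressing cells against the transcripts of the whole tissue they came from, in the brains of untreated mice. It used 4 of the 12 libraries of the series: from each of 2 brains, called E and F in the labels, an input library of total RNA and an immunoprecipitated (IP) library labelled CAMKII_RiboTag. All 23352 genes of the exon count table entered, of which the 13254 that averaged 37 counts or more were tested. The mice carried the RiboTag allele, in which Cre recombination adds a hemagglutinin tag to the ribosomal protein Rpl22, together with a Camk2a-cre transgene that acts mainly in excitatory neurons of the forebrain. All 4 libraries came from mice of the same genotype, adult and labelled Untreated, and the input of each brain was lysate of homogenized brain tissue set aside before the IP. No precipitate from tissue without tagged ribosomes was analysed here, so RNA that binds the beads without the tag was not measured. The remaining 8 libraries of the series, ribosome footprints and total RNA of brains A to D, were left out. As the 1 exception, the total RNA of brains A and B served as a second input in an alternative. Brains A and B are labelled Untreated, but the paper describes the control mice of its drug experiment as given drug-free vehicle by oral gavage.

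RiboTag works by pulling ribosomes out of a lysate through the tag, so that the mRNAs on them come along. At like ribosome binding, a transcript made mainly by the tagged cells rises in the precipitate relative to the input. One made by other cells falls, and one that all cells make at a like level changes little. The ratio also depends on the share of a transcript that is bound to ribosomes. A fall alone therefore does not place a transcript in other cells. Excitatory neurons of the forebrain release glutamate, which the vesicular transporters Slc17a7 and Slc17a6 load into synaptic vesicles, and they depend on Ca2+/calmodulin signalling through kinases such as Camk2a. In cortex they are intermingled with inhibitory interneurons, astrocytes, cells of the oligodendrocyte lineage, microglia and the cells of blood vessels. In bulk RNA of this kind, fewer cells of a type and less RNA per cell cannot be told apart.

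The 4 libraries were deep and alike in size. They held 21880153 (input E), 19681269 (IP E), 27878212 (input F) and 22237115 (IP F) exon counts, and between 13825 and 15498 genes had at least 10 counts in a library. Levels are given below as CPM, counts in a library of 1000000, scaled between libraries by the trimmed mean of M values (TMM), so that every change is relative to the bulk of the genes in a library. Changes are log2 ratios of IP over input, fitted over both brains with brain as a block, with the standard error (SE) of the fit. A gene is called enriched or depleted when its adjusted p (edgeR quasi-likelihood test, Benjamini-Hochberg over all genes tested) was under 0.05 and the change over 2-fold. The p-values rest on how far the IP over input ratios of 2 brains differed. With 1 residual degree of freedom per gene, that spread was estimated mostly across genes and not from each gene alone.

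The IP divided the transcriptome unevenly. Of the 13254 genes, 1547 were enriched and 2916 depleted, which is 11.7% and 22.0% of the genes tested, and 1546 and 2915 of them moved the same way in each brain taken alone. Scaled by total counts in place of TMM, 777 genes were enriched and 3688 depleted. Falls reached much further than rises: the 5th percentile of all log2 changes was -2.67 and the 95th 1.33, around a median of -0.035. The highest log2 change of a gene named here was 2.78 and the lowest -6.56. The log2 ratios of the 2 brains ran closely together across 13248 genes, with Pearson's r = 0.958 and Spearman's rho = 0.967; the points are genes of the same 4 libraries and are no independent replicates.

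**Figure D1:**
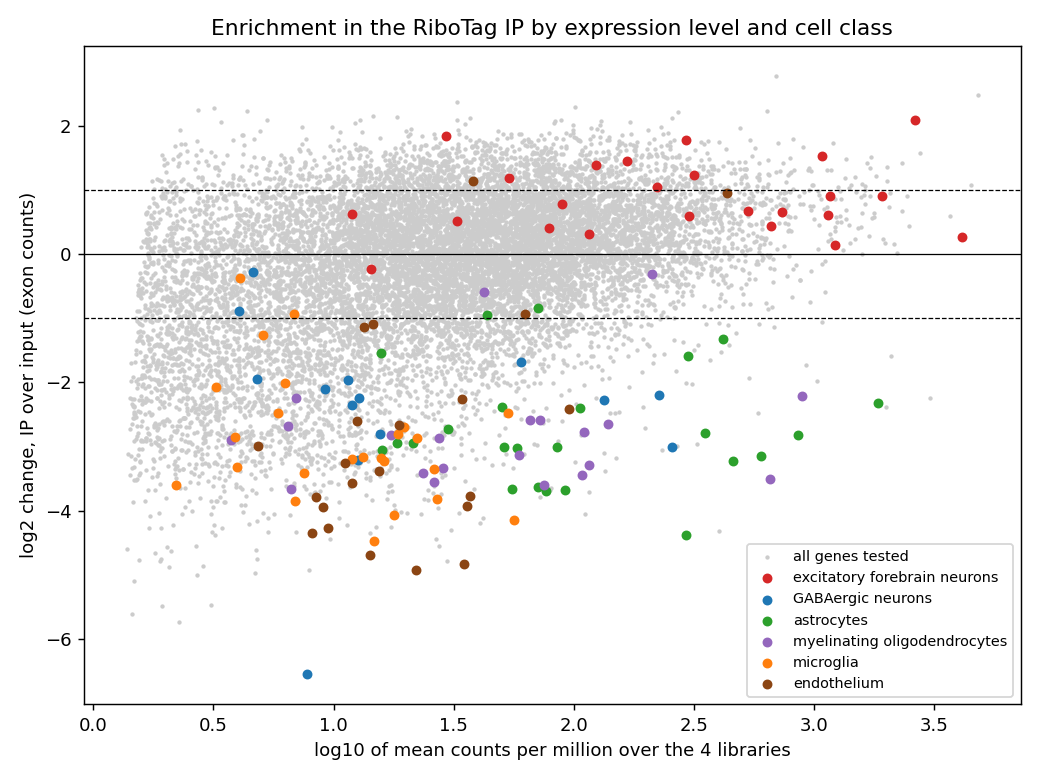
Each point is a gene tested, with the log10 of its mean CPM over the 4 libraries on the horizontal axis and its log2 change (IP over input) on the vertical axis; dashed lines mark a 2-fold change and colours mark lists of cell class genes. Genes of excitatory neurons lie at or above 0 apart from Nptxr at -0.23, and nearly all glial, endothelial and GABAergic genes lie below -1.

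The tagged gene and the driver gene were looked at before the rest. Rpl22, the ribosomal protein that carries the tag, stood at 45.0 CPM (input E), 79.8 CPM (IP E), 41.5 CPM (input F) and 67.3 CPM (IP F). Both IP values were above both inputs, and the log2 change was 0.76 ± 0.08 (SE, adjusted p = 3.0e-12), under the 2-fold limit. Camk2a, the kinase gene whose promoter drives Cre, stood at 4026 CPM in the input and 5052 CPM in the IP of brain E, and at 3505 and 4036 CPM in those of brain F. Each IP was above its own input, but by little: 0.27 ± 0.07 (SE, adjusted p = 0.000934). On CDS counts the same gene was lower in the IP, at a log2 change of -0.69, and the share of its exon reads that lay outside the coding sequence (CDS) was 69.0% and 69.0% before and 86.9% and 89.7% after the IP.

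Genes of excitatory forebrain neurons were higher in the IP. Of 24 listed genes, all tested, 9 were enriched (37.5%) and none was depleted, beside 11.7% and 22.0% of all genes. The median log2 change was 0.73, beside -0.035 over all genes. Neurogranin (Nrgn), a calmodulin-binding protein of dendritic spines that lies on chromosome 9 at 37544493 to 37552745 (GRCm38, the mm10 build of the labels), led the list at 1055 CPM (input E), 4324 CPM (IP E), 959 CPM (input F) and 4235 CPM (IP F). The IP values were about 4 times the inputs in each brain, a log2 change of 2.09 ± 0.07 (SE, adjusted p = 9.8e-33). Neurod2, a transcription factor of cortical neurons, stood at 106 CPM in the input and 277 CPM in the IP of brain E, and at 74.2 and 213 CPM in those of brain F. Its inputs and IPs did not overlap, and the change was 1.45 ± 0.07 (SE, adjusted p = 6.1e-27).

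The main vesicular glutamate transporter of cortex, Slc17a7, stood at 1375 CPM (input E), 2531 CPM (IP E), 1301 CPM (input F) and 2465 CPM (IP F). It rose in both brains, by a log2 change of 0.90 ± 0.07 (SE, adjusted p = 2.2e-17), and stayed under the 2-fold limit. Likewise, Neurod6, a transcription factor of pyramidal neurons, was at 0.78 ± 0.07 (SE, adjusted p = 2.2e-14). Nptxr, the neuronal pentraxin receptor, had the lowest value of the list at -0.23 ± 0.14 (SE, adjusted p = 0.12). Nearly all of its exon counts lay in the coding sequence, and on CDS counts it was at 0.23. Altogether 22 of the 24 genes passed the adjusted p in the upward direction when no limit was set on the fold, and none in the downward direction.

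Genes that all neurons use were also higher in the IP or not called. Of 24 such genes, 9 were enriched (37.5%) and none depleted, beside 11.7% and 22.0% of all genes, with a median of 0.91. Stmn3, a stathmin that binds tubulin, was highest, at 366 CPM in the input and 1243 CPM in the IP of brain E, and at 369 and 1301 CPM in those of brain F, a log2 change of 1.79 ± 0.07 (SE, adjusted p = 6.4e-31). Snap25, the SNARE protein of vesicle fusion, changed by 1.09 ± 0.07 (SE, adjusted p = 5.1e-20) and the splicing factor Rbfox3 (NeuN) by 0.98 ± 0.07 (SE, adjusted p = 8.7e-20). Map2, the microtubule protein of dendrites, went the other way: it stood at 810 CPM (input E), 482 CPM (IP E), 898 CPM (input F) and 483 CPM (IP F). Both IP values lay below both inputs, a log2 change of -0.82 ± 0.07 (SE, adjusted p = 1.9e-16) that was depleted on CDS counts at -2.55. The calcium sensor Syt1 was at 0.00 ± 0.07 on exon counts and depleted on CDS counts at -1.25.

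**Figure D2:**
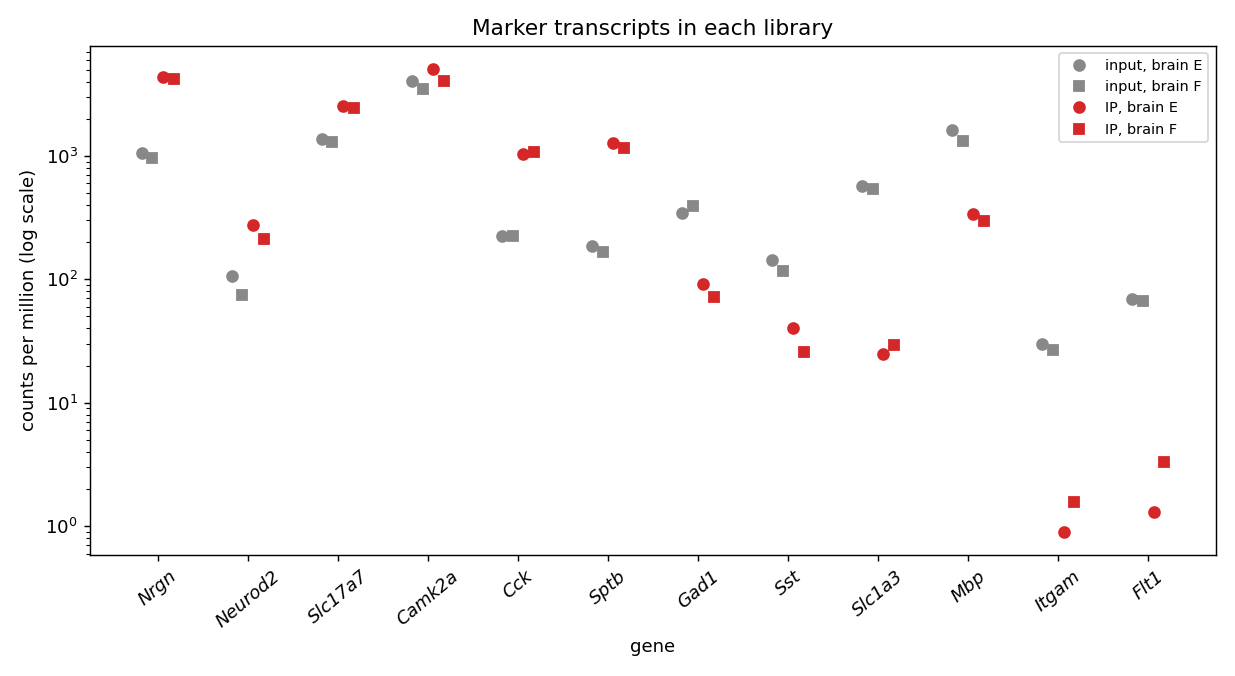
CPM on a log scale for 12 genes in the 4 libraries, with inputs in grey, IPs in red, circles for brain E and squares for brain F. Nrgn, Neurod2, Slc17a7, Cck and Sptb are higher in both IPs than in both inputs, Gad1 to Flt1 are lower, and Camk2a differs little.

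Genes of inhibitory neurons fell. Of 14 tested genes of GABAergic neurons 12 were depleted (85.7%, beside 22.0% of all genes) and none was enriched, with a median of -2.22. Gad1, which makes GABA from glutamate (chromosome 2, 70561303 to 70602014), stood at 347 CPM in the input and 90.9 CPM in the IP of brain E, and at 396 and 72.1 CPM in those of brain F. The inputs and IPs did not overlap, and the change was -2.19 ± 0.08 (SE, adjusted p = 7.0e-33). Gad2, the second enzyme of that step, changed by -2.28 ± 0.08 (SE, adjusted p = 9.0e-33), and Slc32a1, which loads GABA into vesicles, by -1.68 ± 0.10 (SE, adjusted p = 3.8e-22). Erbb4, the neuregulin receptor of interneurons, was the most depleted gene of the list: 382 counts in the input of brain E became 4 in its IP, and 455 in that of brain F became 2, a log2 change of -6.56 ± 0.32 (SE, adjusted p = 1.2e-26) whose size depends on the prior count of the fit. The homeobox gene Dlx6 was the weakest, at -0.28 ± 0.22 (SE, adjusted p = 0.23), and is uncertain, since its inputs had more CDS than exon counts.

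Among 15 tested subtype genes of interneurons, 12 were depleted (80.0%) and 1 enriched (6.67%), beside 22.0% and 11.7% of all genes (median -2.01). Parvalbumin (Pvalb), a calcium buffer of fast-spiking cells, changed by -1.46 ± 0.11 (SE, adjusted p = 2.6e-18), the neuropeptide somatostatin (Sst) by -2.01 ± 0.08 (SE, adjusted p = 1.2e-29) and the vasoactive intestinal peptide (Vip) by -2.82 ± 0.13 (SE, adjusted p = 3.0e-27). Nos1, neuronal nitric oxide synthase, was lowest at -3.37 ± 0.18. The exception was cholecystokinin (Cck), a peptide that is known in both interneurons and pyramidal neurons, at 222 CPM (input E), 1035 CPM (IP E), 224 CPM (input F) and 1070 CPM (IP F). Both IP values were over 4 times their inputs, with a change of 2.24 ± 0.07 (SE, adjusted p = 1.8e-35), so that Cck was among the 12 largest rises of all genes.

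The glial and vascular lists were depleted almost throughout. Over 7 lists of astrocyte, oligodendrocyte precursor, myelin, microglia, endothelial, mural and meningeal genes, 112 of 125 tested genes (89.6%) were depleted, beside 22.0% of all genes. Of 24 astrocyte genes 22 were depleted, with a median of -2.94. The glutamate transporter Slc1a3 (GLAST, chromosome 15, 8634124 to 8710807) stood at 575 CPM in the input and 24.7 CPM in the IP of brain E, and at 544 and 29.1 CPM in those of brain F. The IPs were over 10 times below the inputs, a change of -4.38 ± 0.08 (SE, adjusted p = 4.7e-46). Glul, which makes glutamine, changed by -2.82 ± 0.07 (SE, adjusted p = 2.5e-39), Gfap, the intermediate filament of astrocytes, by -3.01 ± 0.10 (SE, adjusted p = 1.4e-34) and the water channel Aqp4 by -3.67 ± 0.11 (SE, adjusted p = 2.2e-36). S100b, at -0.83 ± 0.08, fell by less than 2-fold.

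Cells of the oligodendrocyte lineage followed. Of 15 genes of their precursors 13 were depleted (median -2.79), led by Ptprz1, a receptor phosphatase, at -4.05 ± 0.09 (SE, adjusted p = 3.3e-42) and the growth factor receptor Pdgfra at -4.03 ± 0.12 (SE, adjusted p = 9.8e-37). Of 21 myelin genes 19 were depleted (median -2.86). Myelin basic protein (Mbp), whose mRNA is carried into myelin processes, stood at 1622 CPM (input E), 340 CPM (IP E), 1329 CPM (input F) and 297 CPM (IP F), a change of -2.21 ± 0.07 (SE, adjusted p = 9.1e-35). The lysophospholipase Enpp2 changed least, at -0.31 ± 0.07 (SE, adjusted p = 2.1e-05).

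In microglia 22 of 24 genes were depleted (median -3.18). The complement genes C1qa, C1qb and C1qc changed by -2.80 ± 0.13, -2.69 ± 0.13 and -3.22 ± 0.15 on the log2 scale. Itgam, the integrin CD11b, was lowest, at 29.9 CPM in the input and 0.905 CPM in the IP of brain E, and at 26.7 and 1.57 CPM in those of brain F, a change of -4.48 ± 0.19 (SE, adjusted p = 8.8e-30). Of 22 endothelial genes 19 were depleted (median -3.32). Abcb1a, the P-glycoprotein pump of the blood-brain barrier, changed by -4.93 ± 0.16 (SE, adjusted p = 4.3e-35) and the VEGF receptor Flt1 by -4.83 ± 0.15 (SE, adjusted p = 4.0e-36).

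A single endothelial gene, of the 22, was enriched and went against its list. Egfl7, a secreted protein of vessels, stood at 23.3 CPM (input E), 51.9 CPM (IP E), 24.0 CPM (input F) and 52.9 CPM (IP F). Both IPs were about 2 times the inputs, an enrichment of 1.15 ± 0.09 (SE, adjusted p = 2.4e-17), while the junction protein Cldn5 and the adhesion molecule Pecam1 changed by -2.61 ± 0.16 and -3.57 ± 0.18. Mural cells (9 of 10 depleted, median -3.56) and meningeal fibroblasts (8 of 9, median -2.65) were depleted as well. The pericyte gene Rgs5 changed by -4.55 ± 0.14 (SE, adjusted p = 1.2e-36) and the collagen gene Col1a2 by -3.15 ± 0.17 (SE, adjusted p = 1.2e-24).

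Transcripts of other cells were lowered and not removed. The summed level of the 24 astrocyte genes was 10528 and 9906 CPM before and 1733 and 1850 CPM after the IP, and that of the 24 microglia genes 668 and 648 CPM before and 80.2 and 82.0 CPM after the IP. In the IPs the Slc1a3 transcript still had 436 to 593 counts. The source of these reads was not tested.

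Choline acetyltransferase (Chat), the enzyme of cholinergic neurons, had 90 and 117 counts before and 0 and 3 counts after the IP. The choline transporter Slc5a7 changed by -3.23 ± 0.27 (SE, adjusted p = 2.6e-16), whereas the monoamine transporter Slc18a2 was at -0.10 ± 0.19 (SE, adjusted p = 0.64). Of 20 genes of striatal projection neurons 2 were depleted (10.0%, beside 22.0% of all genes) and none enriched, and with no limit on the fold 11 passed the adjusted p downward and 3 upward. The phosphodiesterase Pde10a changed by -1.58 ± 0.07 (SE, adjusted p = 1.4e-27) and the dopamine receptor Drd2 by -1.17 ± 0.13 (SE, adjusted p = 8.7e-12), but the dopamine-regulated phosphatase inhibitor Ppp1r1b rose by 0.85 ± 0.07 (SE, adjusted p = 9.9e-18) and the dopamine receptor Drd1a was at -0.20 ± 0.10 (SE, adjusted p = 0.05003).

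The striatal list also moved apart between the brains. Its median log2 ratio was -0.08 in brain E and -0.56 in brain F, and the adenosine receptor Adora2a stood at 40.7 CPM in the input and 44.3 CPM in the IP of brain E, and at 42.4 and 25.03 CPM in those of brain F. In brain E its IP was slightly above the input and in brain F well below. The 4 tested olfactory bulb genes parted the other way, with medians of -0.83 and 0.21, and their summed level differed between the inputs, at 29.9 CPM in brain E and 59.3 CPM in brain F. The choroid plexus gene Ttr also differed between inputs, at 4.03 CPM (input E), 1.07 CPM (IP E), 34.6 CPM (input F) and 4.02 CPM (IP F). With 1 brain on each side these differences have no test.

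**Figure D3:**
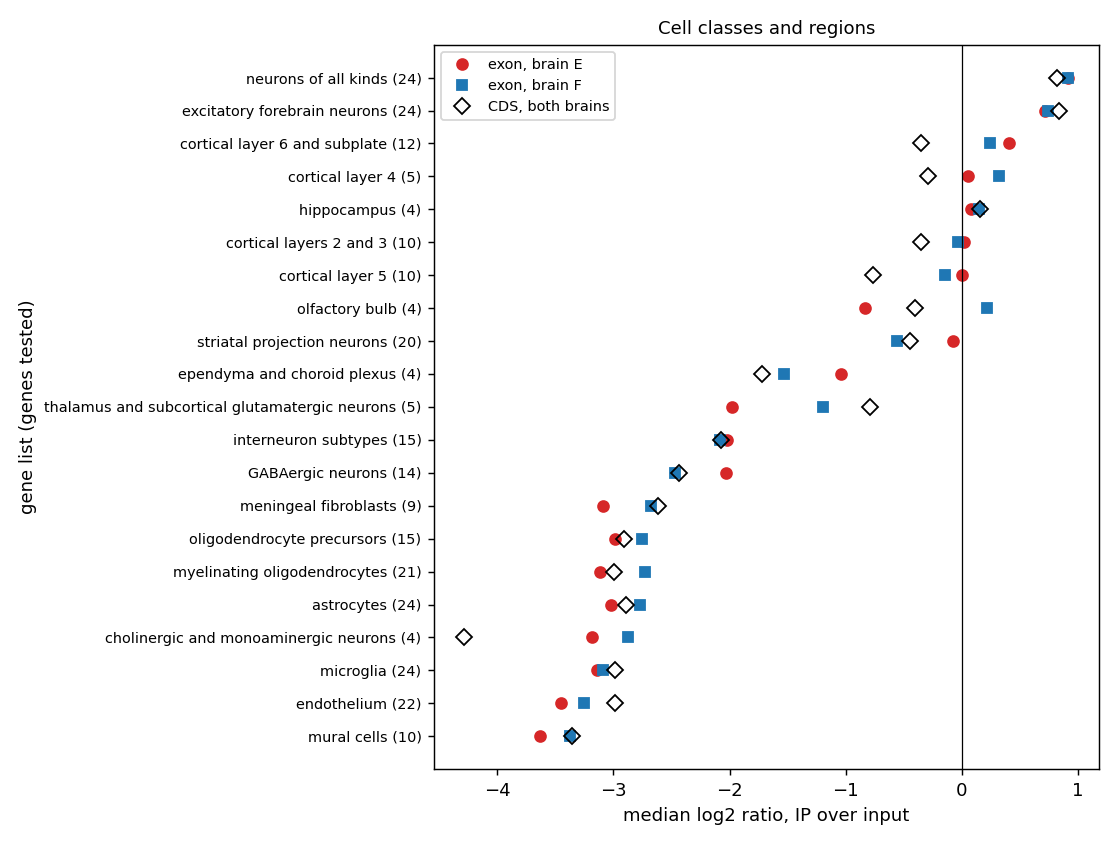
Median log2 ratio (IP over input) of cell class and region lists with at least 4 tested genes, for brain E (circles) and brain F (squares) on exon counts and for both brains on CDS counts (open diamonds); the number of genes tested is in brackets. The lists of excitatory neurons and of all neurons lie above 0, the layer lists near 0, and the astrocyte, oligodendrocyte, microglial and vascular lists below -2.

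Markers of cortical layers showed no common direction, and the shares called are read beside 11.7% enriched and 22.0% depleted of all genes. In layers 2 and 3, 1 of 10 genes was enriched (10.0%) and 1 depleted (10.0%). The transcription factors Cux1 and Cux2 were at -0.28 ± 0.08 and -0.55 ± 0.08, the lysosomal membrane protein Lamp5 rose by 1.38 ± 0.07 (SE, adjusted p = 1.1e-26) and the vesicle fusion protein Otof fell, with a log2 change of -1.47 ± 0.10 (SE, adjusted p = 3.4e-20). In layer 5, 2 of 10 were enriched and 3 depleted. Pcp4, a regulator of calmodulin, rose by 1.48 ± 0.07 (SE, adjusted p = 7.5e-28), whereas the transcription factors Fezf2 and Bcl11b stayed within 2-fold at 0.52 ± 0.09 and 0.19 ± 0.07, and the glutamate transporter Slc17a8 fell, with a log2 change of -2.79 ± 0.31 (SE, adjusted p = 3.5e-12).

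In layer 6 and subplate, 2 of 12 genes were enriched (16.7%) and 1 depleted (8.33%), beside 11.7% and 22.0% of all genes. Rprm, a cell cycle gene used as a layer marker, stood at 36.6 CPM in the input and 130 CPM in the IP of brain E, and at 44.7 and 151 CPM in those of brain F. Its IPs were over 3 times its inputs, a change of 1.79 ± 0.08 (SE, adjusted p = 3.2e-29), while Foxp2 and Tle4, transcription regulators of the layer, were at 0.18 ± 0.10 and -0.30 ± 0.09. The layer 4 gene Rorb was at 0.36 ± 0.09. On CDS counts the medians of layers 4 and 6 changed sign, from 0.26 to -0.29 and from 0.31 to -0.35, and that of layer 4 also turned, to -0.016, when libraries were scaled by total counts. Of the hippocampal genes, Prox1 was depleted at -4.33 ± 0.37 (SE, adjusted p = 3.8e-16). It had 125 and 203 counts in the inputs but 7 and 4 in the IPs, so the size of its fall is uncertain. The CA1 gene Fibcd1 was at 0.37 ± 0.14 (SE, adjusted p = 0.0175). Of 5 tested subcortical genes 3 were depleted (60.0%, median -1.57). Among them Lef1 and Tcf7l2, both factors of Wnt signalling, were at -2.83 ± 0.28 and -2.24 ± 0.29, and Slc17a6, which was not called, was at 0.42 ± 0.12 (SE, adjusted p = 0.00165). The lists are named by region, and which cells the reads came from was not tested.

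Among all genes, the 12 largest rises that were called on exon and on CDS counts were Sptb, Scand1, Rprml, Cited1, Efcab10, Cck, Cldn26, Ttc9b, Exosc6, 3010026O09Rik, H1fx and Ap2s1, with log2 changes from 2.12 to 2.78. Sptb, the beta spectrin first known from red blood cells (chromosome 12, 76580488 to 76710547), stood at 185 CPM (input E), 1268 CPM (IP E), 168 CPM (input F) and 1165 CPM (IP F). The IPs were about 7 times the inputs, a change of 2.78 ± 0.07 (SE, adjusted p = 1.6e-39). Its CDS counts rose less, by 1.99, and the share of its exon reads outside the CDS was 35.2% and 38.4% before and 69.7% and 76.9% after the IP. Ap2s1, a subunit of the clathrin adaptor AP-2, stood at 94.2 CPM in the input and 411 CPM in the IP of brain E, and at 97.3 and 423 CPM in those of brain F, a change of 2.12 ± 0.07 (SE, adjusted p = 4.1e-35). H1fx, a linker histone, and Exosc6, a subunit of the RNA exosome, rose by 2.13 ± 0.10 and 2.16 ± 0.14. The exon counts of Scand1 are uncertain, since its CDS counts were higher in every library. Cited1 and Efcab10 were low in all libraries, at 6 CPM or less.

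The 12 largest falls chosen the same way included Abcb1a, Flt1, Zbed6, Vwf, Rgs5, Itgam, Pcdhgc3, Nbeal1, Slc1a3, Kdr and Egfr, from -4.93 to -4.33. Abcb1a, Flt1, Vwf and Kdr are known from endothelium, and Flt1 stood at 68.8 CPM (input E), 1.30 CPM (IP E), 66.2 CPM (input F) and 3.34 CPM (IP F). Both IPs were over 10 times below the inputs. Zbed6, a transcription factor gene that lies within an intron of another gene, stood at 61.4 CPM in the input and 2.72 CPM in the IP of brain E, and at 52.8 and 1.47 CPM in those of brain F, a change of -4.79 ± 0.14 (SE, adjusted p = 3.4e-37). Pcdhgc3 shares exons with the other genes of its protocadherin cluster, so its reads cannot all be assigned and its value is uncertain.

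Genes of the basic machinery of the cell were called in large shares. Over the genes of cytosolic and mitochondrial ribosomes, the respiratory chain and the proteasome, 161 of 264 tested genes (61.0%) were enriched, beside 11.7% of all genes. In the respiratory chain 60 of 76 nuclear-encoded subunits were enriched, with a median of 1.46, and in the mitochondrial ribosome 57 of 76, with a median of 1.26. Uqcr11, a subunit of complex III, stood at 49.8 CPM (input E), 198 CPM (IP E), 46.4 CPM (input F) and 178 CPM (IP F). Both IPs were about 4 times the inputs, a change of 1.96 ± 0.07 (SE, adjusted p = 7.1e-32). Cox5b of complex IV rose by 1.76 ± 0.07 (SE, adjusted p = 2.7e-31), and Ndufs1, a large core subunit of complex I, by 0.21 ± 0.07 (SE, adjusted p = 0.00608), under 2-fold.

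The exception in the respiratory chain was Cox6a2, an isoform of complex IV known from muscle and some interneurons, which was depleted at -1.52 ± 0.32 (SE, adjusted p = 2.8e-05) and had few counts. Among mitochondrial ribosomal proteins Mrps28 rose most, by 1.91 ± 0.15 (SE, adjusted p = 1.1e-17), and Mrps5 was lowest at -0.15 ± 0.10 (SE, adjusted p = 0.15). In the proteasome 21 of 35 genes were enriched and none depleted (median 1.09). The catalytic subunit gene Psmb5 stood at 40.2 CPM in the input and 162 CPM in the IP of brain E, and at 38.6 and 157 CPM in those of brain F, a change of 2.02 ± 0.08 (SE, adjusted p = 7.9e-32). Psmb5 and Ndufs1 had more CDS than exon counts in every library, so their exon counts are uncertain. Psmd1 and Psmd11, subunits of the regulatory particle, were at -0.03 ± 0.07 and 0.00 ± 0.09.

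Cytosolic ribosomal proteins rose by about 2-fold. Of 77 tested, 23 were enriched and none depleted, and the median of 0.91 lay just under the limit. Their CDS counts passed it in 73 of 76 genes, at a median of 1.35, beside 20.4% of all genes tested on CDS counts. Rpl24 was highest, at 112 CPM (input E), 327 CPM (IP E), 97.1 CPM (input F) and 291 CPM (IP F), a change of 1.56 ± 0.07 (SE, adjusted p = 6.0e-29), and Rps12 lowest at 0.18 ± 0.07 (SE, adjusted p = 0.0154). These genes have many processed pseudogenes, with which reads can be shared.

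Of 62 translation factors 13 were enriched (21.0%) and 6 depleted (9.68%), beside 11.7% and 22.0% of all genes, with a median of 0.55. Eif3k, a small subunit of the initiation factor eIF3, rose by 1.47 ± 0.07 (SE, adjusted p = 7.4e-26), while Eif3a, its largest subunit, fell, with a log2 change of -1.22 ± 0.07 (SE, adjusted p = 6.6e-23). The others depleted were Eif4ebp2, a repressor of cap-dependent initiation, Eif2c2 and Eif2c3, which encode Argonaute proteins, and the kinase genes Eif2ak2 and Eif2ak4, from -2.82 to -1.54. Of 21 tRNA synthetases only Hars was enriched (1.22 ± 0.07) and only Eprs depleted (-1.11 ± 0.08).

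In glycolysis 7 of 15 genes were enriched (46.7%) and 1 depleted (6.67%), beside 11.7% and 22.0% of all genes (median 0.98). The aldolases Aldoa and Aldoc went opposite ways. Aldoa stood at 1269 CPM in the input and 3292 CPM in the IP of brain E, and at 1260 and 3485 CPM in those of brain F, a change of 1.42 ± 0.07 (SE, adjusted p = 1.7e-25). Aldoc, the aldolase known from astrocytes, stood at 612 CPM (input E), 83.4 CPM (IP E), 623 CPM (input F) and 95.7 CPM (IP F), a change of -2.79 ± 0.07 (SE, adjusted p = 1.6e-39). Of 27 microtubule genes 12 were enriched (44.4%) and 4 depleted (14.8%), beside 11.7% and 22.0% of all genes. Tubb2b, Dpysl3, Map1b and Map1a fell, with log2 changes between -2.32 and -1.05, and the gamma tubulin Tubg1 rose by 1.23 ± 0.09. Of the ATG8 family, which tags autophagosomes, Map1lc3a and Gabarapl1 were enriched at 1.70 ± 0.07 and 1.26 ± 0.07, and the other 3 of 5 rose by less than 2-fold.

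**Figure D4:**
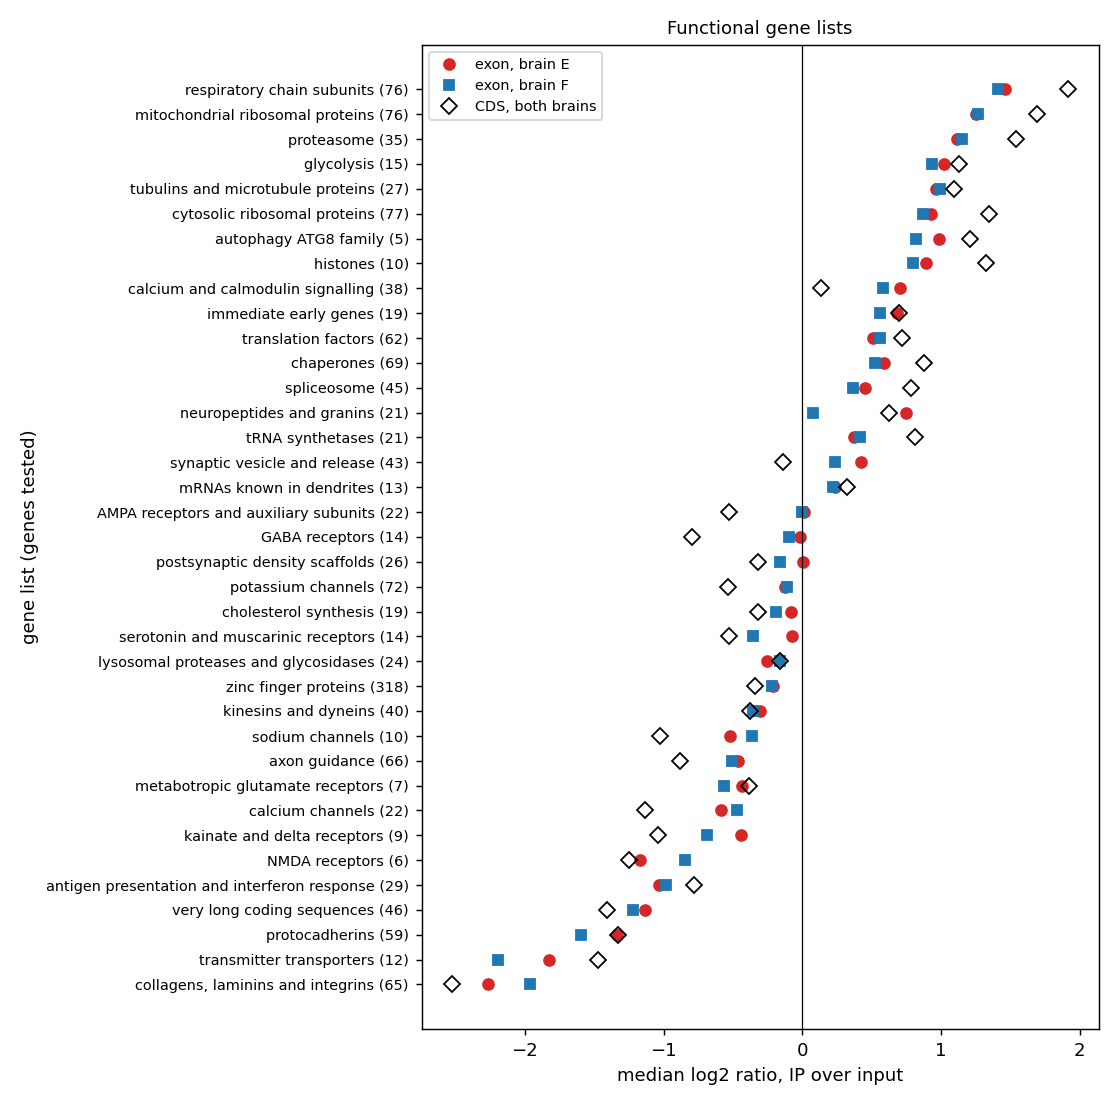
Median log2 ratio (IP over input) of functional lists with at least 5 tested genes, for brain E (circles) and brain F (squares) on exon counts and for both brains on CDS counts (open diamonds); the number of genes tested is in brackets. Respiratory chain, mitochondrial ribosome and proteasome genes are highest, matrix genes, transmitter transporters and protocadherins lowest, and the CDS medians of most channel and receptor lists lie to the left of the exon medians.

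Of 43 genes of synaptic vesicles and release 7 were enriched (16.3%) and 8 depleted (18.6%), shares near the 11.7% and 22.0% of all genes (median 0.28, and -0.14 on CDS counts). Synaptophysin (Syp), an abundant vesicle membrane protein, stood at 1092 CPM in the input and 2805 CPM in the IP of brain E, and at 1168 and 3033 CPM in those of brain F. Its IPs were over 2 times the inputs, a change of 1.37 ± 0.07 (SE, adjusted p = 5.8e-25). The SNARE gene Stx1a and the vesicle GTPase Rab3a rose by 1.44 ± 0.07 and 1.28 ± 0.07, while Syt2, a calcium sensor of fast-spiking cells, and Sv2c, a vesicle glycoprotein, fell, with log2 changes of -1.62 ± 0.14 and -3.27 ± 0.18.

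On the receiving side, 1 of 26 postsynaptic scaffolds was enriched, Dlg3 at 1.04 ± 0.07 (SE, adjusted p = 4.5e-21), and 4 depleted (15.4%, beside 22.0% of all genes). Among AMPA receptor genes 5 of 22 were enriched (22.7%) and 3 depleted (13.6%), beside 11.7% and 22.0% of all genes. The subunits Gria1 and Gria3 were at -0.12 ± 0.07 and 0.01 ± 0.07, Gria2 was at -0.85 ± 0.07 (SE, adjusted p = 3.3e-17), and the auxiliary protein Olfm1 rose by 1.52 ± 0.07 (SE, adjusted p = 4.8e-27). Among NMDA receptor genes none of 6 was enriched and 3 were depleted, with Grin1, the obligatory subunit, at 0.12 ± 0.07 (uncertain, since its inputs had more CDS than exon counts), Grin2a at -2.34 ± 0.14 (SE, adjusted p = 3.9e-22) and Grin2c at -2.86 ± 0.11 (SE, adjusted p = 7.1e-32). Nearly all exon counts of Grin2a lay in the CDS in every library, and on CDS counts the gene was at -1.87. Of 14 GABA receptor genes 2 were depleted and none was enriched. The extrasynaptic subunit Gabrd rose by 0.95 ± 0.07, under 2-fold, and Gabrg3 fell, with a log2 change of -2.55 ± 0.28.

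In calcium and calmodulin signalling 10 of 38 genes were enriched (26.3%, beside 11.7% of all genes) and 1, Pvalb, was depleted (median 0.65). On CDS counts 9 were enriched and 5 depleted, and the median was 0.14. Camk1, a kinase of the same family as Camk2a, rose by 1.33 ± 0.07 (SE, adjusted p = 3.6e-24). Among immediate early genes 6 of 19 were enriched (31.6%) and 1 depleted (5.26%), beside 11.7% and 22.0% of all genes. Fos stood at 24.3 CPM (input E), 56.0 CPM (IP E), 32.3 CPM (input F) and 57.6 CPM (IP F), a change of 1.01 ± 0.09 (SE, adjusted p = 8.3e-15), Egr4 rose by 1.43 ± 0.09 (SE, adjusted p = 1.2e-21), and the nuclear receptor Nr4a3 fell, with a log2 change of -1.62 ± 0.23 (SE, adjusted p = 4.5e-09). Neuropeptides split by 7 enriched (33.3%) and 6 depleted (28.6%) of 21, the latter Sst, Npy, Vip, Tac2, Pnoc and Nxph1, from -2.82 to -2.01.

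Among mRNAs known in dendrites 2 of 13 were enriched (15.4%) and 1 depleted (7.69%), beside 11.7% and 22.0% of all genes. The plasticity gene Arc and the spine protein gene Ddn were at 0.54 ± 0.07 (SE, adjusted p = 2.8e-10) and 0.14 ± 0.07 (SE, adjusted p = 0.0633), and the scaffold Shank1 fell, with a log2 change of -1.65 ± 0.07 (SE, adjusted p = 8.3e-30). Shank1 stood at 629 CPM in the input and 208 CPM in the IP of brain E, and at 491 and 150 CPM in those of brain F, with no overlap of inputs and IPs.

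Shares of ion channel genes called on exon counts are read beside 11.7% enriched and 22.0% depleted of all genes. Of 72 potassium channel genes 3 were enriched (Kcnj4, Kcng2 and Kcns1, from 1.10 to 1.69) and 20 depleted (27.8%), near the share of all genes. Kcnj8, known from mural cells, was lowest at -4.04 ± 0.43 (SE, adjusted p = 1.3e-12). Of 10 sodium channel genes 3 were depleted (30.0%). The pore subunits Scn8a, Scn1a and Scn3a were at 0.05 ± 0.07, -0.97 ± 0.07 and -1.41 ± 0.09. Of 22 calcium channel genes 8 were depleted (36.4%) and 1, the auxiliary subunit Cacnb3 (1.05 ± 0.07), enriched. The pore subunit Cacna1e stood at 207 CPM (input E), 63.2 CPM (IP E), 200 CPM (input F) and 54.2 CPM (IP F), a change of -1.80 ± 0.07 (SE, adjusted p = 4.0e-30). On CDS counts 25 of 66 potassium (37.9%), 6 of 10 sodium (60.0%) and 11 of 21 calcium channel genes (52.4%) were depleted, beside 26.2% of all genes. The CDS medians were -0.54, -1.03 and -1.14. Over the 54 potassium channel genes tested on exon counts, CDS counts and reads outside the CDS, the medians were 0.11, -0.49 and -0.09. In the same order they were 0.08, -1.03 and -0.19 for 8 sodium and -0.23, -1.14 and -0.25 for 17 calcium channel genes.

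Of 59 protocadherins 37 were depleted (62.7%, beside 22.0% of all genes) and none was enriched (median -1.57). Over the 20 of them tested on exon counts, CDS counts and reads outside the CDS, the medians were -0.37, -0.82 and -0.35. Genes of a cluster that share exons, such as Pcdhgc3, have uncertain values. Of 65 collagens, laminins and integrins 45 were depleted (69.2%) and none was enriched (median -2.09). Of 66 axon guidance genes 19 were depleted (28.8%) and none enriched (median -0.49). Col19a1, a collagen, changed by -2.13 ± 0.10 (SE, adjusted p = 1.7e-27) and Plxnb3, a plexin, by -3.70 ± 0.15 (SE, adjusted p = 1.2e-29). Of 40 kinesin and dynein genes 13 were depleted (32.5%) and 2 enriched, with a median of -0.35 that was 0.066 over the 28 genes tested on reads outside the CDS. The enriched genes were the light chains Dynlrb1 and Dynll1 at 1.38 ± 0.07 and 1.75 ± 0.07. Kif1a, a motor that carries synaptic vesicle precursors, was at -0.59 ± 0.07 (SE, adjusted p = 2.5e-11), and Kif13b at -3.08 ± 0.15 (SE, adjusted p = 4.9e-27). Nearly all exon counts of Kif13b lay in the CDS, and on CDS counts the gene was at -2.62. Of 12 transmitter transporters 7 were depleted (58.3%), among them the glial Slc1a3.

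Of 12 listed long noncoding RNAs 9 were depleted and none was enriched (median -1.49). Meg3, an imprinted noncoding RNA abundant in neurons, stood at 5586 CPM in the input and 962 CPM in the IP of brain E, and at 4501 and 1159 CPM in those of brain F. Both IPs were below both inputs, a change of -2.25 ± 0.09 (SE, adjusted p = 2.1e-31). The nuclear RNA Malat1 changed by -1.82 ± 0.08 (SE, adjusted p = 1.5e-29). Neat1, the scaffold of nuclear paraspeckles, differed between brains as well as between input and IP, at 20.4 CPM (input E), 3.79 CPM (IP E), 111 CPM (input F) and 30.4 CPM (IP F). Peg13, another imprinted RNA, was highest at 0.39 ± 0.07 (SE, adjusted p = 3.8e-07). Over all 311 tested genes that RefSeq classes as long noncoding, 20 were enriched (6.43%) and 88 depleted (28.3%), beside 11.8% and 21.8% of 12815 protein-coding genes.

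The ribosomal RNA precursor Rn45s, which a poly(A) selection should largely remove, was at 2091 CPM in the input and 8785 CPM in the IP of brain E, and at 1007 and 7449 CPM in those of brain F. Both IPs lay above both inputs, a change of 2.48 ± 0.10 (SE, adjusted p = 6.3e-31). The inputs themselves differed by about 2-fold, and because the precursor has many copies in the genome its counts are uncertain.

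Enriched genes had short genomic spans and depleted genes long ones. The median genomic span, from RefSeq on GRCm38, was 8.48 kb for 1513 enriched protein-coding genes, 27.1 kb for 8509 genes that were not called and 41.9 kb for 2793 depleted genes. The interquartile range was 3.95 to 18.3 kb for the enriched and 17.3 to 97.0 kb for the depleted genes. Promoter windows of 300 bases had a CpG ratio (observed over expected) above 0.6 in 77.2% of 1243 enriched genes with a window, 74.6% of 6803 not called and 56.4% of 2195 depleted. The letters TATAAA, searched on both strands, were found in 9.89%, 7.57% and 10.4% of the same genes, and in 8.47% of all.

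The reads of the IP lay further outside the CDS than those of the input. The share of exon counts outside the CDS was 42.3% (input E), 53.4% (IP E), 44.1% (input F) and 56.0% (IP F), so that each IP was above both inputs. Of 9566 genes with enough counts in both regions, 7589 (79.3%) had more reads outside the CDS in the IP and 187 (1.95%) fewer, by an interaction term of region and IP in edgeR with an adjusted p under 0.05. The median of the log2 shift was 1.04. Taken relative to that median, 2190 genes shifted up and 2004 down.

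Genes at the ends of this shift changed their reading by region. Gabrb2, a GABA receptor subunit, had 85.5% and 86.7% before and 98.4% and 99.1% after the IP of its exon reads outside the CDS. Its exon counts were at -0.09 ± 0.07, whereas its CDS counts fell, with a log2 change of -3.15. Tet1, Map3k2, Slc14a1 and Itgav shifted the same way by 3.73 to 4.23 on the log2 scale. In the IPs of brains E and F, Tet1 had 1 and 2 CDS counts, Map3k2 3 and 4, and Slc14a1 1 and 0. The sizes of these 3 shifts are therefore uncertain. In the other direction Fn3k, a fructosamine kinase, had 22.5% and 24.97% before and 2.47% and 2.16% after the IP outside the CDS. Atxn7l2, Ptrhd1, Ipo13 and Prrc2a shifted by -3.04 to -2.38. Only 0.189% and 0.0323% of the exon reads of Prrc2a lay outside the CDS in the IPs, so its shift is uncertain too.

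Genes with long coding sequences were also read by region. In a list of 46 tested genes whose proteins are among the longest known, which was added after the values were seen, 29 were depleted (63.0%, beside 22.0% of all genes) and none enriched. Over the 40 of them tested on all 3 measures, the medians were -1.14 on exon counts, -1.46 on CDS counts and -0.28 on reads outside the CDS. The vacuolar sorting gene Vps13c changed by -3.06 ± 0.11 (SE, adjusted p = 8.4e-33), and Ank3, the ankyrin of the axon initial segment, rose by 0.76 ± 0.07 (SE, adjusted p = 8.5e-16) on exon counts and was at -0.03 on CDS counts. The respiratory chain list, whose genes are short, had medians of 1.41, 1.84 and 0.95 over the 45 genes tested on the same 3 measures, and the astrocyte list -2.94, -2.91 and -2.86 over 23 genes. The part of transcript length and of the position of reads in the enrichment of short and the depletion of long genes was not tested.

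**Figure D5:**
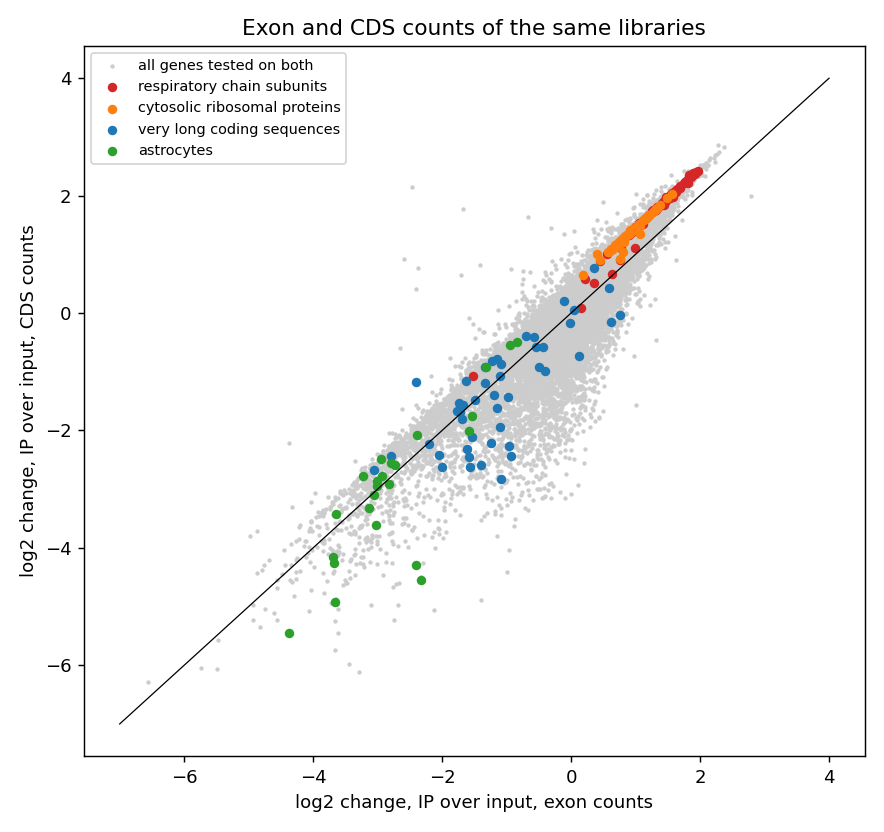
Log2 change (IP over input) on exon counts against that on CDS counts for genes tested on both, with the line of equality. Astrocyte genes are low on both axes, the respiratory and ribosomal genes lie high and above the line, and many grey points near 0 on exon counts fall far below the line.

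The calls held on coding reads for most genes. Of 1488 enriched and 2473 depleted genes tested on both, 95.6% and 85.3% had the same call on CDS counts, where 2496 genes (20.4% of 12211) were enriched and 3202 (26.2%) depleted. Opposite calls were made for 3 genes. Gca, a calcium-binding protein, was enriched on exon counts at 1.00 ± 0.09 (SE, adjusted p = 3.7e-16) and depleted on CDS counts at -1.57, with 86.7% and 86.3% before and 98.4% and 98.3% after the IP of its reads outside the CDS. Serhl and Map3k15 were depleted on exon counts (-2.46 and -1.67) and enriched on CDS counts (2.15 and 1.78), but both had more CDS than exon counts in every library, so their exon counts are uncertain. On exon, CDS and outside-CDS counts together, 564 genes were enriched and 1169 depleted on each.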

How the data were processed

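The 4 libraries were poly(A)-selected RNA-Seq libraries of total lysate RNA (input) and of RNA from the anti-hemagglutinin precipitate (IP) of the same brain. Per the labels, reads were mapped to mm10 with TopHat2 and Bowtie2 and counted with HTSeq, whose versions are not given in the sources used here. The authors deposited raw counts per gene in 2 tables, over exons and over the CDS. Gene symbols spoiled into dates, 0.332% to 0.357% of exon counts, were kept in the fits and never named.

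Genes averaging 37 counts or more over the 4 libraries were scaled by TMM and fitted with edgeR 4.0.16 (quasi-likelihood test) in R 4.3.3, with brain as a block, which left 1 residual degree of freedom and 55.7 prior degrees of freedom. A gene was called at an adjusted p under 0.05 and a change over 2-fold. The pairing comes from the labels, which give the same brain for input and IP, and the deviations of brain E from brain F correlated at 0.594 between inputs and IPs over 11675 genes. Replicate libraries differed beyond sampling noise (chi-square per degree of freedom 17.4 for the inputs and 13.0 for the IPs). Reads outside the CDS were exon less CDS counts. That step left out 439 genes with more CDS than exon counts in a library, which were not tested for overlap with other genes, and 27 with date-like or repeated symbols. The same fits were tested on simulated counts, and DESeq2 1.42.0 and limma 3.58.1 were alternatives.

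The members and the gene lists were chosen with earlier results of these data known. Genes named are the 12 largest rises and falls called the same way on exon and CDS counts in both brains with at least 10 counts in every library, the 3 members written first in each of the 63 lists with its highest and lowest and any called against the rest, genes called in opposite directions by region, the 5 with the largest shift each way, Rpl22 and Rn45s. Of 13254 tested genes 13182 were matched to RefSeq (GRCm38.p6) by symbol or synonym. Totals of 19681269 to 27878212 counts per library set the precision. Intervals from the fit cover counting error and the spread of the IP over input ratio between 2 brains, estimated mostly across genes. Mitochondrially encoded genes had no tested member. Some genes that the rule names are not reported here.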

Additional observations from a re-analysis of the deposited data

How the results depend on the processing

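The counts of enriched and depleted genes stayed within 1.5 times of 1547 and 2916 without the replicate block that pairs input and IP of a brain (1545 and 2888), with DESeq2, limma-voom, DESeq2 size factors and without the count filter. With the total RNA of brains A and B as input, 1104 of 12872 genes were enriched and 2603 depleted. Of these, 958 and 2359 were among the 1547 and 2916. Total counts in place of TMM, which moved the median of all genes from -0.035 to -0.31, gave 777 enriched and 3688 depleted. CDS counts gave 2496 enriched, reads outside the CDS (chosen after seeing the data) 738 and 1694, and calls on all 3 measures 564 and 1169. A minimum of 200 counts left 1787 depleted genes, and no limit on the fold gave 5224 and 5502. With brain E or brain F left out, as values with no test, 1558 to 1589 genes were enriched and 2867 to 3011 depleted. Genes with more reads outside the CDS (7589) numbered 4846 at a minimum of 200 counts and 2190 relative to the median, and 8845 to 8946 without a brain. Those with fewer (187) numbered 60, 2004 and 620 to 720.

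The median of layer 4 turned to -0.016 with total counts, -0.33 at 200 counts, -0.29 on CDS counts, -0.21 against the total RNA of brains A and B and -0.030 outside the CDS. On CDS counts layer 6 turned to -0.35 and synaptic vesicles to -0.14. With total counts the hippocampus turned to -0.13 and dendritic mRNAs to -0.044. Subcortical genes turned to 0.0053 at 200 counts. Outside the CDS, metabotropic receptors turned to 0.11, kinesins and dyneins to 0.066 and lysosomal genes to 0.023. GABA receptors turned to 0.033 without the filter and 0.23 against brains A and B, where neuropeptides turned to -0.35 and cholesterol synthesis to 0.018.

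Among named genes, CDS counts turned Epha4 (-1.01), Syt1 (-1.25), Scn8a (-1.03), Rorb (-1.27), Camk1d (-1.76), Gca (-1.57), Foxp2 (-1.27), Serhl (2.15), Map3k15 (1.78) and Homer3 (0.41). Reads outside the CDS turned Cacnb1 (-1.49), Fn3k (-2.75), Ptrhd1 (-2.06) and Dnajc13 (0.045). Against brains A and B, Doc2g (1.39), Qrfpr (-0.36), Grin2b (1.03) and Slc17a6 (-1.12) turned. The cause was not tested. Over all alternatives, 3668 values of named genes kept their side of the threshold, 111 fell below it, 111 passed it and 18 turned. Without the replicate block, Neat1 (-1.93) and Qrfpr (1.01) lost their calls and no other named gene did. Depth limits genes with few IP counts, such as Chat and Erbb4, whose folds depend on the prior count.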

Other observations

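Shares of genes called are read here beside 11.7% enriched and 22.0% depleted of all genes. Of 45 spliceosome genes 11 were enriched (24.4%) and 4 depleted (8.89%, median 0.44). Snrpd2, a core protein of small nuclear ribonucleoproteins, stood at 34.4 CPM (input E), 135 CPM (IP E), 29.5 CPM (input F) and 135 CPM (IP F), a change of 2.09 ± 0.08 (SE, adjusted p = 2.9e-31), whereas Prpf8, the large protein at the centre of the spliceosome, Prpf39 and Prpf4b fell, with log2 changes of -1.41, -1.79 and -1.71. Of 10 histone genes 4 were enriched and none was depleted (median 0.85). Of 318 zinc finger genes 12 were enriched (3.77%) and 43 depleted (13.5%), both below the shares of all genes (median -0.24), with Zfp296 highest at 1.80 ± 0.24 and Zfp366 lowest at -4.57 ± 0.45. Of 9 small RNA host genes only Snhg11 was depleted, at 3698 CPM in the input and 555 CPM in the IP of brain E, and at 3015 and 737 CPM in those of brain F, a change of -2.38 ± 0.09 (SE, adjusted p = 1.1e-31).

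Of 69 chaperones 12 were enriched (17.4%) and 6 depleted (8.70%, median 0.53). The mitochondrial chaperonin Hspe1 rose by 1.11 ± 0.08 (SE, adjusted p = 3.7e-18), and the small heat shock proteins Hspb8 and Hspb1 fell, with log2 changes of -2.74 ± 0.23 and -2.61 ± 0.33. Of 19 genes of cholesterol synthesis 2 were enriched (10.5%) and 1 depleted (5.26%): Fdps, which makes farnesyl diphosphate, rose by 1.35 ± 0.08 (SE, adjusted p = 1.5e-23) and Lss, lanosterol synthase, fell, with a log2 change of -1.76 ± 0.14 (SE, adjusted p = 3.6e-17). Of 24 lysosomal enzymes none was enriched and 7 were depleted (29.2%), with the microglial protease Ctss lowest at -3.83 ± 0.13 (SE, adjusted p = 3.9e-34) and Ctsb highest at 0.85 ± 0.07 (SE, adjusted p = 4.0e-17). Of 29 genes of antigen presentation and the interferon response 15 were depleted (51.7%) and 2 enriched, H2-Ke2 at 1.74 ± 0.09 (SE, adjusted p = 2.7e-26) and Oas1c at 1.12 ± 0.30 (SE, adjusted p = 0.000557). Of 14 serotonin and muscarinic receptor genes 5 were depleted (35.7%), among them Htr3a, a serotonin channel of interneurons, at -3.02 ± 0.31 (SE, adjusted p = 2.7e-13), and Chrm1 was highest at 0.62 ± 0.07 (SE, adjusted p = 7.9e-13). Of 9 kainate and delta and 7 metabotropic receptors none was enriched, and 2 and 1 were depleted, the latter Grm3 at -1.39 ± 0.09 (SE, adjusted p = 4.5e-21).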
